A study of Mus musculus with 6 samples.

Results

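The kinase mTOR works in a pair of protein complexes, and 10 genes that encode their core subunits and the proteins through which they act on translation were followed here in leukemia cells with and without Ddit4. They are Mtor itself and Mlst8, shared by both complexes; Rptor and Rictor, each of which defines one complex; the S6 kinase genes Rps6kb1 and Rps6kb2; the genes of the translation inhibitors 4E-BP1 and 4E-BP2, Eif4ebp1 and Eif4ebp2; the cap-binding protein gene Eif4e; and Pdcd4, a target of the S6 kinases. They were taken by gene name and were 10 of the 55421 genes in the deposited table. RNA sequencing had been done on 6 libraries of mouse leukemia cells. In the 3 AE9a-Ddit4+/+ libraries the cells descended from c-Kit+ bone marrow progenitors of wild-type mice, and in the 3 AE9a-Ddit4-/- libraries from those of Ddit4 knockout mice (wild-type and knockout libraries below), donors being 6 to 8 weeks old. Both groups carried AE9a, a shortened AML1-ETO fusion protein brought in by a retrovirus with GFP. Both had grown to leukemia in irradiated C57BL/6 recipients, which keep stromal cells of their own. First-round recipients were lethally irradiated, and the round of transplantation behind these libraries is not given. The label of each sample is leukemia cells, kept in IMDM with serum. A figure legend of the paper names the bone marrow of transplanted mice as the source of the cells, with n = 3 per group. Whether the libraries of a group came from separate primary leukemias is not given. In the paper only a minority of first-round recipients of knockout cells developed leukemia, so that knockout libraries may share a primary leukemia. The p-values therefore measure the spread between libraries, which may be that between mice with a shared primary leukemia, or technical.

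DDIT4, also called REDD1, is induced by stress such as hypoxia or glucocorticoids and restrains mTOR complex 1 through the TSC proteins. When complex 1, defined by raptor (Rptor), is active, it phosphorylates the S6 kinases and the 4E-BPs. Phosphorylated 4E-BPs let go of eIF4E, which then assembles the cap-binding complex eIF4F and starts translation, and active S6 kinase marks PDCD4, an inhibitor of the helicase eIF4A, for degradation. Complex 2, defined by rictor (Rictor), phosphorylates AKT and related kinases. The comparison asks how much RNA of these components the leukemia cells held by genotype. These events take place on proteins, and phosphorylation was not measured.

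Stretches of the coding sequence through which these events run are shown, since they are what links the genes into a chain, with the functional part in capitals and the coordinates on GRCm38. The eIF4E-binding motif of Eif4ebp2 lies in exon 2 at chr10:61435057-61435101 on the minus strand, the letters with which 4E-BP2 docks on eIF4E being coding bases 160 to 180. The TOR signaling motif, by which raptor holds the substrate, closes the coding sequence of Eif4ebp2 in exon 3 at chr10:61433797-61433826 (coding bases 346 to 360) and stands near the start of that of Rps6kb1 in exon 1 at chr11:86544599-86544637 on the minus strand (coding bases 82 to 96). The hydrophobic motif site of Rps6kb1, which complex 1 phosphorylates, has coding bases 1222 to 1239. Its stretch as printed, with flanking bases, runs from exon 13 into exon 14, and where in it the junction falls was not determined. The range chr11:86504355-86506808 on the minus strand therefore takes in an intron. The degron of Pdcd4, which the ubiquitin ligase SCF-beta-TrCP reads once S6 kinase has acted, lies in exon 3 at chr19:53909264-53909308 on the plus strand (coding bases 208 to 228). The sequences were read from GENCODE M21 transcripts.
Eif4ebp2, eIF4E-binding motif: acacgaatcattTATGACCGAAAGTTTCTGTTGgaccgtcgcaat
Eif4ebp2, TOR signaling motif: gatgaggctcagTTTGAGATGGACATCtga
Rps6kb1, TOR signaling motif: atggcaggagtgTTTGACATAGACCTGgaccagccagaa
Rps6kb1, hydrophobic motif site: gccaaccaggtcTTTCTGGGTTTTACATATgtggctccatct
Pdcd4, degron: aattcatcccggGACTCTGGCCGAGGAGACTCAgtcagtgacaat

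Some facts of the libraries bear on every value below. Totals ran from 62141558 to 72717681 counts. Ddit4 RNA was 228, 161 and 342 CPM (counts per 1000000 counts of the scaled library) in AE9a-Ddit4+/+ libraries 1 to 3. It was 84.9, 77.7 and 85.9 CPM in knockout libraries 1 to 3, a log2 difference of -1.56 (SE 0.28, edgeR adjusted p = 0.00635). Its RNA was thus lower but not absent, while the paper found no DDIT4 protein in AE9a-Ddit4-/- leukemia cells by western blot. The part of the gene that the allele lacks is not known here. Runx1t1, the fusion partner whose sequence AE9a carries, and the progenitor marker Kit summed to 32.7 to 42.6 CPM with Ddit4 intact and 445 to 714 CPM in the knockout. Erythroid markers (10 of 10 lower) summed to 7603 to 16158 CPM with Ddit4 intact and 372 to 929 CPM in the knockout. Neutrophil markers (4 of 10 lower) summed to 6931 to 11295 and 1835 to 4983 CPM. At an unadjusted p below 0.05, and also by DESeq2, 6 neutrophil markers were lower and 1 was higher. Megakaryocyte markers (5 of 8 tested higher, 1 lower) summed to 141 to 226 and 2076 to 2735 CPM, B-cell markers (6 of 7 higher) to 1.05 to 4.90 and 64.6 to 128 CPM, T and NK cell markers (7 of 8 higher) to 10.8 to 48.4 and 81.1 to 111 CPM, and markers of stroma and endothelium (4 of 8 higher) to 6.51 to 11.3 and 159 to 194 CPM, with Ms4a1 and Klrb1c at 0 in all AE9a-Ddit4+/+ libraries. Of the monocyte markers 0 of 8 passed the edgeR test in either direction, with 1 higher at an unadjusted p below 0.05 and 1 higher by DESeq2, and they summed to 187 to 367 and 105 to 402 CPM. Of 12 S-phase and 12 G2/M genes, 5 and 6 were lower in AE9a-Ddit4-/- libraries by edgeR, 8 and 9 at an unadjusted p below 0.05 and 7 and 8 by DESeq2, with 0 higher by each of the 3. Mitochondrial genes took 5.03 to 7.90% of counts in AE9a-Ddit4+/+ and 11.3 to 16.4% in AE9a-Ddit4-/- libraries. Xist was 565 to 1032 CPM with Ddit4 intact and 20.3 to 129 CPM in the knockout, and the Y-linked gene Ddx3y at most 0.0773 and at least 88.1 CPM, so that genotype and the sex of the cells cannot be told apart. The part that these differences had in any result below was not tested, and in bulk RNA fewer cells of a type and less RNA per cell cannot be told apart.

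Of the 10 genes, Eif4ebp1 and Eif4ebp2, which encode 4E-BPs, fell in AE9a-Ddit4-/- cells, to 0.436 and 0.479 of their wild-type levels. No other gene of the group passed the test. All 10 passed the filter on low counts, with 421 to 23001 counts per library. An adjusted p below 0.05 was reached by 0 genes in the higher and 2 in the lower direction, where 19.4% and 10.7% of all 18375 genes tested were called higher and lower, and 30.1% in either direction. None was higher at an unadjusted p below 0.05 or by DESeq2 either, and 3 were lower by each of these. The libraries of the genotypes did not overlap for 3 genes, Mlst8, Eif4ebp1 and Eif4ebp2, all lower, while 22.2% of all genes tested were lower and 27.9% higher without overlap, 50.1% in either direction. The median log2 difference was -0.49 over the 10 genes, 0.04 over all genes tested and -0.17 over the 8218 genes expressed above a log2 CPM of 4, among which were all 10. Of those 8218 genes 1400 were called lower and 1243 higher, and 2529 were lower and 1750 higher without overlap. Fold changes are AE9a-Ddit4-/- over AE9a-Ddit4+/+, and intervals are at 95%.

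**Figure D1:**
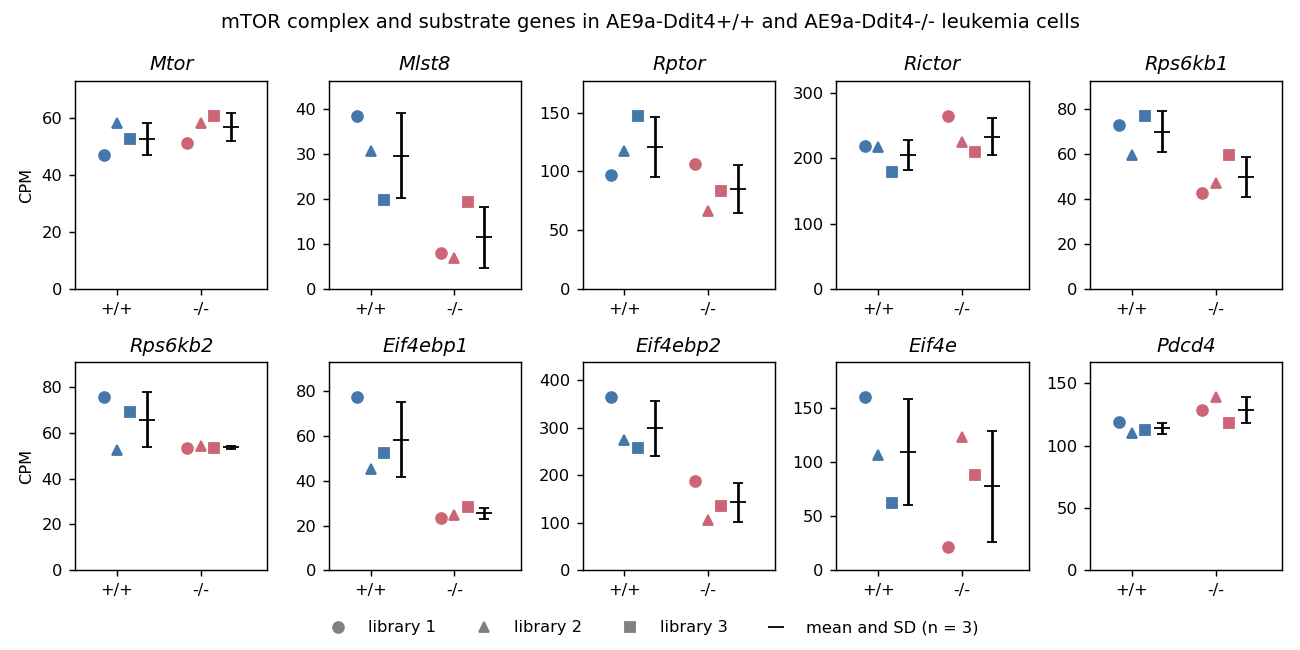
CPM of each of the 10 genes (vertical axes, each starting at 0) in the 3 AE9a-Ddit4+/+ libraries (blue) and the 3 AE9a-Ddit4-/- libraries (red), with the mean and SD in black and marker shapes for library numbers. Groups stand apart for Eif4ebp1 and Eif4ebp2. Those of Mlst8 nearly meet, at 19.7 CPM in AE9a-Ddit4+/+ library 3 and 19.4 CPM in AE9a-Ddit4-/- library 3. The points of Eif4e spread from 22.0 to 160 CPM.

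Eif4ebp1 (ENSMUSG00000031490; GRCm38 chr8:27260329-27276674, plus strand) encodes 4E-BP1, which blocks eIF4E until complex 1 phosphorylates it. It was 77.2, 45.1 and 52.4 CPM in wild-type libraries 1 to 3, and 23.3, 24.7 and 28.1 CPM in knockout libraries 1 to 3. All AE9a-Ddit4-/- libraries lay close together and under the lowest wild-type library, while wild-type library 1 stood above its group. The mean fell from 58.2 ± 16.8 to 25.4 ± 2.45 CPM (SD, n = 3), which the fit put at 2.29-fold lower, a log2 difference of -1.20 (SE 0.25, interval -1.78 to -0.61, edgeR adjusted p = 0.0108).

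Eif4ebp2 (ENSMUSG00000020091; GRCm38 chr10:61428491-61452661, minus strand) encodes 4E-BP2, which carries the docking and raptor-binding stretches printed above. It was 364, 274 and 257 CPM with Ddit4 intact and 188, 106 and 135 CPM in the knockout, again without overlap and with library 1 the highest of its group in both genotypes. From 298 ± 57.5 to 143 ± 41.6 CPM (SD, n = 3) it was 2.09-fold lower, a log2 difference of -1.06 (SE 0.26, interval -1.67 to -0.46, edgeR adjusted p = 0.0199). Without wild-type library 1 the difference was -0.90 with an edgeR adjusted p of 0.0629, past the threshold no longer. Eif4ebp2 lies on the chromosome of Ddit4, 1.48 Mb away.

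Since the counts of Eif4ebp2 differed by genotype, the 250 bases before its RefSeq start are given (GRCm38.p6, chr10:61452670-61452919, minus strand, 70.0% GC), with the motifs found on either strand in capitals. They held the GC box GGGCGG at 2 places and the hypoxia response core ACGTG once.
Eif4ebp2, promoter: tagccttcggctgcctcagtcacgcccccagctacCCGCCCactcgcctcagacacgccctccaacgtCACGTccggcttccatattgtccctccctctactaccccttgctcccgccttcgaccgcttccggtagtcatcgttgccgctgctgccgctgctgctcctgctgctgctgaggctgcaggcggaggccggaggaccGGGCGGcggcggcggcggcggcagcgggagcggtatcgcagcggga
Such windows were searched for 8 of the 10 genes, those with an entry in the RefSeq promoter table, against all 32851 promoters. The 8 genes had 10 windows, and a gene was counted when any of its windows held a motif, whereas the shares are of single windows. GGGCGG was found for 4 of the 8 (Eif4ebp2, Mtor, Pdcd4, Rictor) and in 32.7% of all windows, CCAAT for 4 (Eif4e, Mtor, Pdcd4, Rictor) and in 33.8%, and ACGTG for 4 (Eif4e, Eif4ebp2, Pdcd4, Rptor) and in 16.6%. The E-box CACGTG, which contains ACGTG, was found for Eif4e alone and in 6.02% of all windows, whereas TGACGTCA (1.55%) and AGATAA (9.99%) were found for 0 of the 8. These matches describe letters and not bound sites.

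Eif4e (ENSMUSG00000028156; GRCm38 chr3:138526179-138559696, plus strand) encodes the protein that binds the mRNA cap and that the 4E-BPs hold back. It was 160, 107 and 62.7 CPM with Ddit4 intact and 22.0, 124 and 88.1 CPM in the knockout. The genotypes overlapped, and knockout library 1 lay far under the other 5 libraries. The log2 difference was -0.50 (SE 0.60, interval -1.89 to 0.89, edgeR adjusted p = 0.566), and it came to -0.05 when knockout library 1 was left out and to -1.02 when knockout library 2 was. Its spread within the groups stood at percentile 98.6 among the 8218 genes above, the widest of the 10 genes. Gm7327, a near copy with 98.6% identity over 654 bases, held 112 to 336 counts per library against 1368 to 10136 for Eif4e, and a 61-bp microRNA gene, Mir1956, lies within an exon.

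The kinase subunit and the subunits that define each complex did not pass the test. Mtor (ENSMUSG00000028991; GRCm38 chr4:148448611-148557683, plus strand) was 46.9, 58.3 and 52.6 CPM with Ddit4 intact and 51.2, 58.4 and 60.8 CPM in the knockout. The groups overlapped and the spread within them was small, at percentile 10.9. The log2 difference was 0.11 (SE 0.18, edgeR adjusted p = 0.684), and its interval of -0.32 to 0.54 leaves out changes as large as those of the 4E-BP genes.

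Mlst8 (ENSMUSG00000024142; GRCm38 chr17:24473551-24479078, minus strand), whose product binds the kinase domain in both complexes, was 38.5, 30.8 and 19.7 CPM with Ddit4 intact and 8.05, 6.93 and 19.4 CPM in the knockout. Knockout library 3 came within 1 CPM of wild-type library 3, the other AE9a-Ddit4-/- libraries being well under every wild-type library. The means were 29.7 ± 9.46 and 11.5 ± 6.89 CPM (SD, n = 3). The log2 difference of -1.37 (SE 0.46, interval -2.44 to -0.30, edgeR adjusted p = 0.0582) was larger than that of either 4E-BP gene but missed the threshold. It passed with DESeq2 (adjusted p = 0.0160), with counts divided by 4 (edgeR adjusted p = 0.0476) and without knockout library 3 (log2 difference -2.03, edgeR adjusted p = 0.0140). Exons of Mlst8 overlap those of Bricd5 on the other strand over 997 bp, and Bricd5 held 6, 2 and 8 counts in wild-type libraries 1 to 3 and 46, 4 and 7 in knockout libraries 1 to 3. The part of this overlap in the values of Mlst8 was not tested.

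Rptor (ENSMUSG00000025583; GRCm38 chr11:119602905-119899576, plus strand), the scaffold that brings substrates to complex 1, was 96.5, 118 and 147 CPM with Ddit4 intact and 107, 66.0 and 83.3 CPM in the knockout. Knockout library 1 lay within the AE9a-Ddit4+/+ range and the others under it. The log2 difference was -0.50 (SE 0.25, interval -1.08 to 0.08, edgeR adjusted p = 0.167). Exons of Rptor overlap those of Rptoros on the other strand over 84 bp. Rptoros had means of 0.395 CPM with Ddit4 intact and 0.571 CPM in the knockout. Rictor (ENSMUSG00000050310; GRCm38 chr15:6708379-6800401, plus strand), the scaffold of complex 2, was 220, 217 and 179 CPM with Ddit4 intact and 265, 224 and 210 CPM in the knockout, which overlapped. Its log2 difference was 0.18 (SE 0.18, interval -0.24 to 0.60, edgeR adjusted p = 0.478). Over the 344 genes of chromosome 15 expressed above a log2 CPM of 4, the median log2 difference was 0.39, against -0.17 over all 8218 such genes.

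The S6 kinases phosphorylate ribosomal protein S6, eEF2 kinase and PDCD4. Rps6kb1 (ENSMUSG00000020516; GRCm38 chr11:86498871-86544805, minus strand), the gene of S6K1, was 73.2, 59.8 and 77.2 CPM with Ddit4 intact and 42.6, 47.4 and 59.9 CPM in the knockout. Only knockout library 3 reached the AE9a-Ddit4+/+ range, at its lower edge. The mean was 70.1 ± 9.13 CPM with Ddit4 intact and 50.0 ± 8.89 CPM in AE9a-Ddit4-/- cells (SD, n = 3), a log2 difference of -0.49 that did not pass (SE 0.21, edgeR adjusted p = 0.118).

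Rps6kb2 (ENSMUSG00000024830; GRCm38 chr19:4153991-4163354, minus strand), the gene of S6K2, was 75.5, 52.5 and 69.0 CPM with Ddit4 intact and 53.2, 54.2 and 53.3 CPM in the knockout. All AE9a-Ddit4-/- libraries were nearly equal and at the level of wild-type library 2. The log2 difference was -0.29 (SE 0.20, interval -0.75 to 0.17, edgeR adjusted p = 0.298). Exons of Rps6kb2 overlap those of Ptprcap over 1224 bp and of Coro1b over 45 bp on the other strand, and those of Rps6kb1 overlap Rnft1 over 155 bp. Whether strand was used in counting is not given in the sources used here, so that reads in these stretches could go to either gene. Ptprcap, Coro1b and Rnft1 differed by -0.15, -0.19 and 0.15 on the log2 scale (edgeR adjusted p = 0.778, 0.533 and 0.630).

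Pdcd4 (ENSMUSG00000024975; GRCm38 chr19:53892231-53929860, plus strand), whose degron is printed above, was the steadiest of the 10 genes. It was 119, 110 and 112 CPM with Ddit4 intact and 128, 139 and 118 CPM in the knockout, with an overlap between wild-type library 1 and knockout library 3 alone. The spread within its groups stood at percentile 3.08 among the 8218 genes. The log2 difference was 0.17 (SE 0.16, interval -0.20 to 0.55, edgeR adjusted p = 0.458), so that a change of Pdcd4 RNA of the size seen for the 4E-BP genes lies outside the interval.

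**Figure D2:**
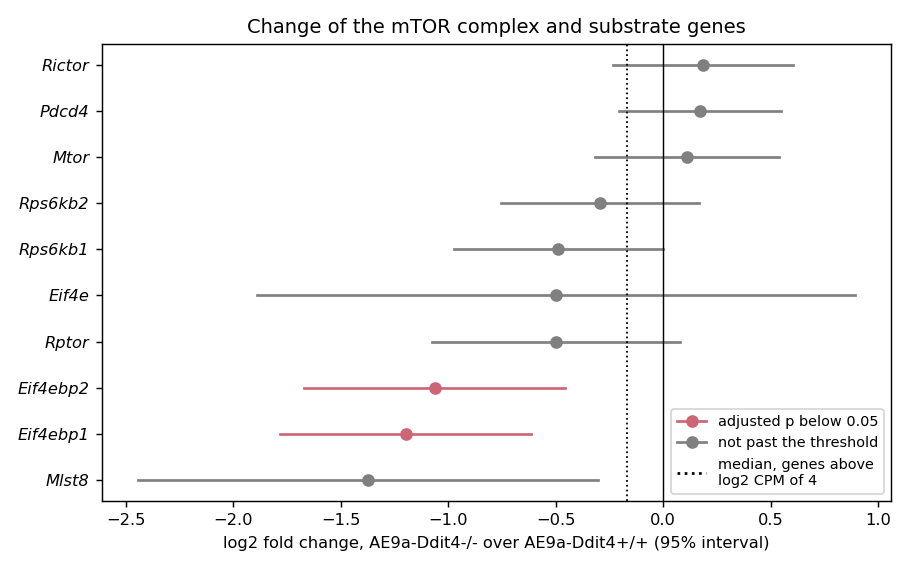
Log2 fold change of each gene (points, horizontal axis) with its 95% interval (lines); red marks an adjusted p below 0.05, the solid line is at 0 and the dotted line at -0.17, the median of the 8218 genes expressed above a log2 CPM of 4. The intervals of Eif4ebp1 and Eif4ebp2 end at -0.61 and -0.46, and that of Eif4e runs from -1.89 to 0.89.

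Levels of different genes were compared as CPM per kb of exon. In AE9a-Ddit4+/+ cells Eif4ebp2 led with 51.6 ± 9.94 (SD, n = 3), followed by Pdcd4 with 36.3 ± 1.47, Eif4ebp1 with 26.5 ± 7.66 and Eif4e with 18.3 ± 8.14 CPM per kb. Below them came Rps6kb2 (12.7 ± 2.29), Rictor (12.1 ± 1.33), Rptor (8.95 ± 1.90), Rps6kb1 (8.09 ± 1.05), Mlst8 (6.69 ± 2.13) and Mtor (5.20 ± 0.566 CPM per kb). Of neighbours in this order, the libraries of Eif4ebp2 and Pdcd4 did not overlap, and those of all other neighbours did.

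In AE9a-Ddit4-/- cells the order began with Pdcd4 (40.9 ± 3.34 CPM per kb), and Eif4ebp2 (24.7 ± 7.19) came next, without overlap between them or with the gene that followed. Rictor (13.8 ± 1.70), Eif4e (13.0 ± 8.59) and Eif4ebp1 (11.6 ± 1.11) overlapped one with the next, and Rps6kb2 (10.4 ± 0.106) lay apart from its neighbours on either side. Rptor (6.33 ± 1.51), Rps6kb1 (5.77 ± 1.03) and Mtor (5.62 ± 0.493) overlapped again, and Mlst8 was last and apart from Mtor with 2.58 ± 1.55 CPM per kb. Levels per kb rest on the summed exons of each gene, and transcripts that use fewer of them would be set too low.

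**Figure D3:**
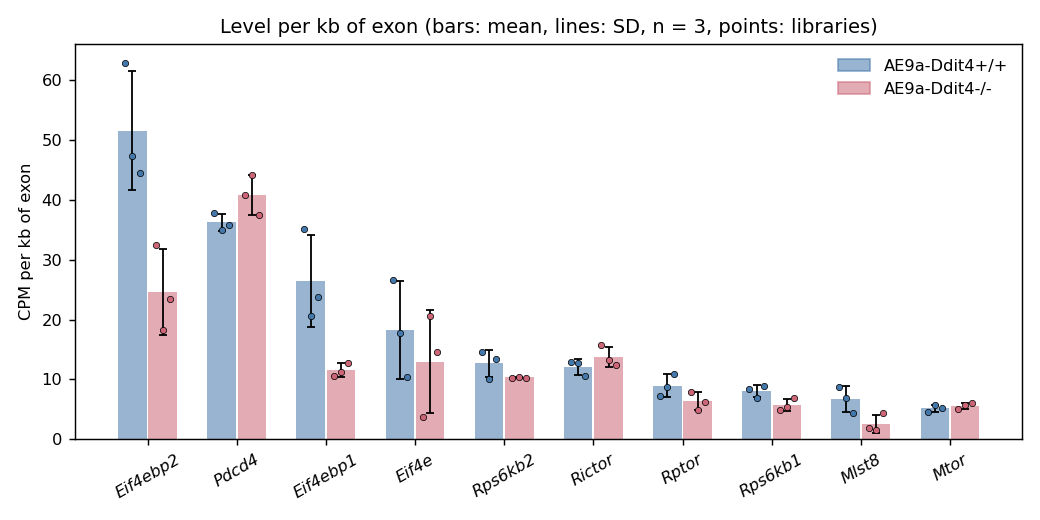
CPM per kb of exon (vertical axis, from 0) of the 10 genes in the order of the AE9a-Ddit4+/+ mean, with bars for means, lines for SD (n = 3) and points for libraries, AE9a-Ddit4+/+ in blue and AE9a-Ddit4-/- in red. Eif4ebp2 stands above Pdcd4 in AE9a-Ddit4+/+ libraries (51.6 against 36.3) and below it in AE9a-Ddit4-/- libraries (24.7 against 40.9).

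Ratios within a library do not depend on how libraries are scaled, and 5 were compared between genotypes with an exact two-sided permutation test, in which 3 against 3 libraries cannot give a p below 0.1. The ratio of Rptor to Rictor, the scaffolds of the complexes, was 0.552, 0.682 and 1.03 in AE9a-Ddit4+/+ libraries and 0.504, 0.369 and 0.498 in AE9a-Ddit4-/- libraries. The genotypes did not overlap, with a mean log2 difference of -0.69 (exact p = 0.1, adjusted over the 5 ratios 0.5). The ratio of Eif4ebp1 to Eif4ebp2 was 0.558, 0.433 and 0.537 in AE9a-Ddit4+/+ libraries and 0.327, 0.617 and 0.546 in AE9a-Ddit4-/- libraries, which overlapped (log2 difference -0.08, exact p = 0.9, adjusted 1). Eif4ebp1 and Eif4ebp2 both fell, and their proportion differed by less than the spread between libraries.

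The sum of Eif4ebp1 and Eif4ebp2 over Eif4e sets the inhibitors against their target. It was 3.67, 3.83 and 6.54 in AE9a-Ddit4+/+ libraries and 11.8, 1.43 and 2.47 in AE9a-Ddit4-/- libraries. AE9a-Ddit4-/- libraries 2 and 3 lay under every wild-type library and library 1 above all of them, the library in which Eif4e was 22.0 CPM (log2 difference -0.38, exact p = 0.8, adjusted 1). Rps6kb1 to Rps6kb2 differed by -0.22 on the log2 scale (exact p = 0.3, adjusted 0.75), and Pdcd4 to the sum of the genes of its target eIF4A, Eif4a1 and Eif4a2, by 0.03 (exact p = 1, adjusted 1), both with overlapping libraries.

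**Figure D4:**
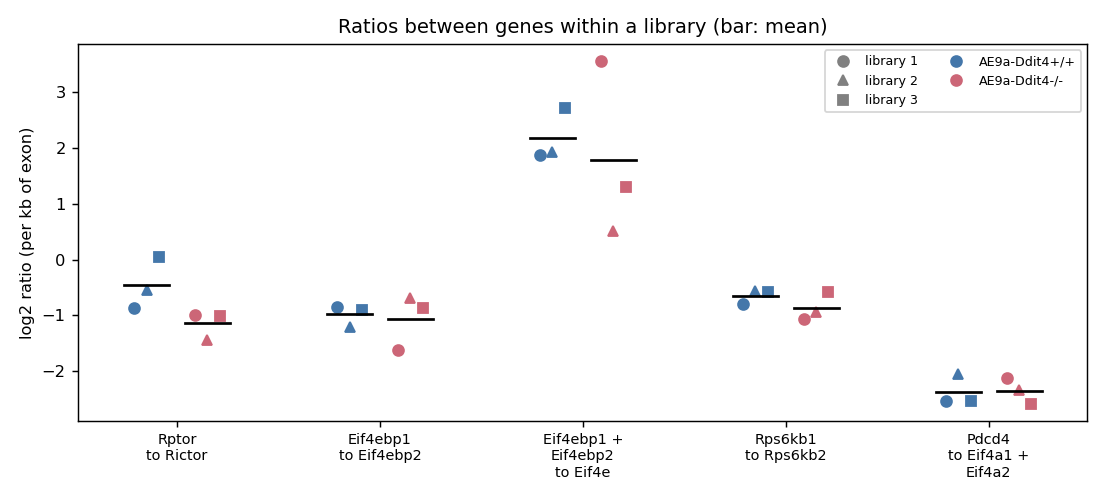
Log2 of 5 ratios between genes, per kb of exon (vertical axis), in each AE9a-Ddit4+/+ (blue) and AE9a-Ddit4-/- (red) library, with marker shapes for library numbers and bars for means. The ratio of Rptor to Rictor is the one in which the genotypes do not overlap, and that of Eif4ebp1 plus Eif4ebp2 to Eif4e spreads furthest in AE9a-Ddit4-/- libraries.

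Further genes of the pathway were taken in 6 lists of 51 genes in all, of which 50 were tested, 6 rose and 4 fell in AE9a-Ddit4-/- cells. Both shares lay below those over all genes tested, of which 19.4% were called higher and 10.7% lower. Of the 50 genes, 32 had a log2 difference below 0 and the median was -0.10, where 4828 of the 8218 genes expressed above a log2 CPM of 4 were below 0 and their median was -0.17. Of the remaining subunits and assembly factors of the complexes, 3 of 7 tested were higher and 0 lower (2 lower at an unadjusted p below 0.05 and 2 by DESeq2), with a median log2 difference of 0.23. Prr5, a subunit of complex 2, was 1.27, 1.69 and 0.263 CPM with Ddit4 intact and 25.9, 31.0 and 29.7 CPM in the knockout, a log2 difference of 4.75 (SE 0.65, edgeR adjusted p = 0.00231).

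Deptor, an inhibitor that binds mTOR in both complexes, was 6.77, 14.5 and 4.02 CPM with Ddit4 intact and 54.3, 67.0 and 79.3 CPM in the knockout (log2 difference 2.99, SE 0.48, edgeR adjusted p = 0.00396). Akt1s1, whose product PRAS40 inhibits complex 1 and is a substrate of AKT, was 22.1, 26.1 and 17.9 CPM with Ddit4 intact and 50.3, 49.5 and 46.6 CPM in the knockout (log2 difference 1.15, SE 0.21, edgeR adjusted p = 0.00686). The genes of both inhibitory subunits were higher in every knockout library than in any wild-type library. Prr5 and Deptor lie, like Rictor, on chromosome 15. The median log2 difference was 0.59 over the 695 genes tested there, against 0.04 over all genes tested. The part of the chromosome in the values of Prr5 and Deptor was not tested. Mapkap1, the gene of the complex 2 subunit SIN1, had a log2 difference of -0.94 and did not pass (edgeR adjusted p = 0.0525), and Prr5l was not tested, with at most 42 counts in a library.

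Of 11 lysosomal activators of complex 1, most place it on the lysosome when amino acids are present. Of all 11, 1 fell and 0 rose, and 9 had a log2 difference below 0 (median -0.41). At an unadjusted p below 0.05 there were 4 lower and 2 higher, and by DESeq2 1 lower and 2 higher. The 2 higher, Rragb and Rragd, encode Rag GTPases and were scarce. Rragb was 0, 0.177 and 0 CPM with Ddit4 intact and 1.04, 1.58 and 0.381 CPM in the knockout (edgeR adjusted p = 0.0632), and Rragd 0.127, 0.0589 and 0.526 against 1.73, 0.658 and 1.35 CPM (edgeR adjusted p = 0.0753). Lamtor1, the lysosomal anchor of the Ragulator complex, was 70.2, 67.0 and 64.7 CPM with Ddit4 intact and 50.7, 38.5 and 44.6 CPM in the knockout (log2 difference -0.59, SE 0.19, edgeR adjusted p = 0.0460). It did not pass when any 1 of the 6 libraries was left out (edgeR adjusted p = 0.0509 to 0.116).

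Of 12 genes of eIF4F and cap-dependent initiation 1 rose and 1 fell (median log2 difference 0.16). Eif4h, a cofactor of the helicase eIF4A, was 681, 511 and 614 CPM with Ddit4 intact and 297, 337 and 321 CPM in the knockout (log2 difference -0.92, SE 0.18, edgeR adjusted p = 0.00810). Mknk1, a kinase that phosphorylates eIF4E, was 61.5, 70.6 and 76.1 CPM with Ddit4 intact and 168, 117 and 88.3 CPM in the knockout (log2 difference 0.84, SE 0.26, edgeR adjusted p = 0.0443), and it was past the threshold in 1 of the 6 fits that left out a library, the one without knockout library 3. Eif4g1, the scaffold of eIF4F, and Eif4a1, its helicase, had log2 differences of -0.05 and -0.04 (edgeR adjusted p = 0.927 and 0.932). Eif4ebp3, the gene of a further 4E-BP, was scarce, with means of 0.459 CPM with Ddit4 intact and 0.636 CPM in the knockout. Its log2 difference was 0.47 (SE 0.63, edgeR adjusted p = 0.607).

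Among 7 genes of S6 kinase substrates and of PDCD4 turnover, 1 rose and 1 fell (median log2 difference -0.29), and these act in sequence, since eEF2 kinase phosphorylates and inactivates the elongation factor eEF2. Eef2k was 45.9, 44.7 and 38.7 CPM with Ddit4 intact and 189, 244 and 148 CPM in the knockout (log2 difference 2.17, SE 0.23, edgeR adjusted p = 0.000899). Eef2 was 5343, 5058 and 5305 CPM with Ddit4 intact and 2848, 2989 and 2786 CPM in the knockout (log2 difference -0.87, SE 0.16, edgeR adjusted p = 0.00657). The genotypes overlapped for neither gene. Rps6, the gene of the S6 protein, had a log2 difference of -0.48 and did not pass (edgeR adjusted p = 0.0563), and Btrc, a ligase subunit that reads the PDCD4 degron, one of -0.01 (edgeR adjusted p = 0.980).

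Of 8 other substrates of complex 1, Ulk1 rose and Lpin1 fell (median log2 difference -0.10). Ulk1, the kinase that starts autophagy and is inhibited by complex 1, was 98.4, 102 and 59.0 CPM with Ddit4 intact and 320, 232 and 155 CPM in the knockout (log2 difference 1.45, SE 0.33, edgeR adjusted p = 0.0146). Lpin1, a phosphatidate phosphatase that restrains sterol gene expression when complex 1 is off, was 75.1, 57.2 and 86.0 CPM with Ddit4 intact and 42.4, 24.9 and 24.4 CPM in the knockout (log2 difference -1.25, SE 0.29, edgeR adjusted p = 0.0158), but it did not pass without wild-type library 3 (edgeR adjusted p = 0.0556). Of the 5 substrates of complex 2 counted here 0 fell by edgeR or DESeq2, 2 had a lower level with an unadjusted p below 0.05, and 4 had a log2 difference below 0. The lowest of these was that of Prkca, a protein kinase C gene (-0.69, edgeR adjusted p = 0.0806), and Akt1, the gene of an AKT kinase, had one of -0.43 (edgeR adjusted p = 0.104).

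**Figure D5:**
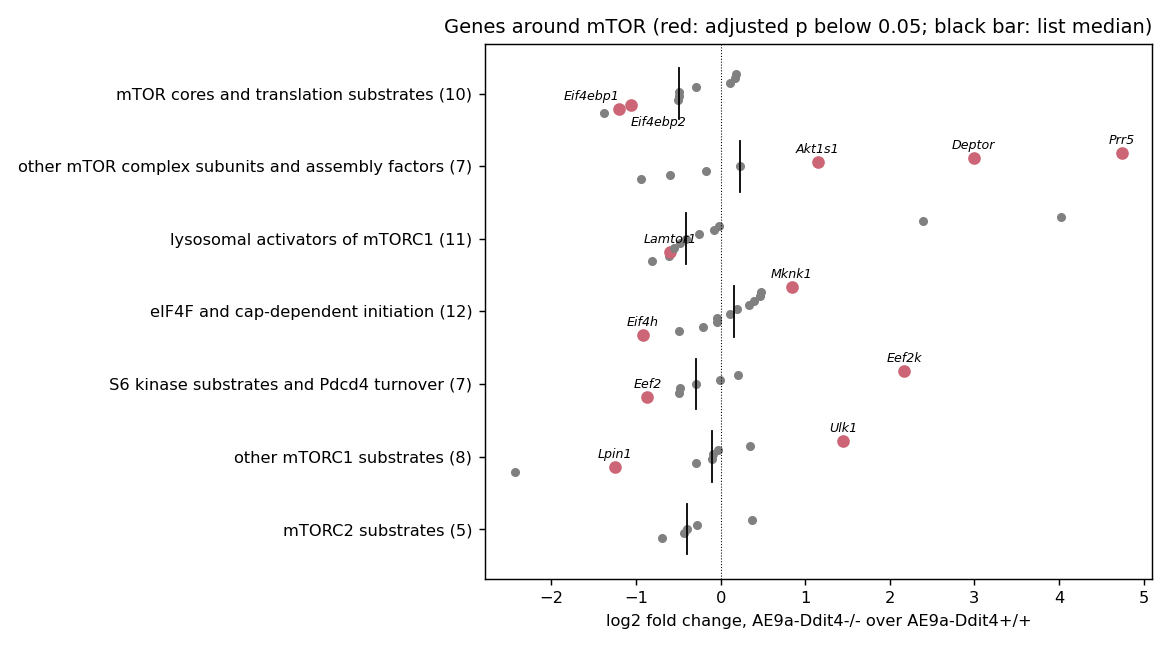
Log2 fold change (horizontal axis) of the 10 genes and of the 6 lists of further pathway genes, with the number tested in brackets, a black bar at each median and red points for an adjusted p below 0.05. Changes past the threshold run from -1.25 (Lpin1) to 4.75 (Prr5).

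The genes whose pattern over the 6 libraries was nearest to that of Eif4ebp1, measured as the root mean square distance of centred log2 CPM, were Pik3r2, C1qtnf12 and Adam10, at 0.0986, 0.105 and 0.107. Pik3r2, a regulatory subunit of PI3 kinase, had a log2 difference of -1.17 (edgeR adjusted p = 0.0167). C1qtnf12 and Adam10, a membrane protease, had log2 differences of -1.19 and -1.09 (edgeR adjusted p = 0.0142 and 0.0116). Both their differences and their order of libraries, with wild-type library 1 the highest and knockout library 1 the lowest as in Eif4ebp1, follow from this choice and are given as a description.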

How the data were processed

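RNA had been sequenced by the authors as paired reads. A directional kit for rRNA-depleted RNA is named in the study's methods and an mRNA kit in the labels. The authors deposited 1 table of whole-number counts per gene, not normalized, for 6 libraries. GRCm38 and mm10 are the builds named in the submitters' processing notes. The aligner, counter, annotation and use of strand are not given in the sources used here. Multiples of 4 were 1.41 to 1.62 times as frequent among low counts as the even numbers between them, so the fragments behind a count are unknown.

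Positions came from GENCODE M21 (GRCm38), which held 55154 of the 55421 identifiers. Differential expression was computed with edgeR 4.0.16 under R 4.3.3 (quasi-likelihood F-test, filterByExpr, TMM factors of 0.921 to 1.05, robust estimation, genotype as the only term, all 6 libraries), with Benjamini-Hochberg adjustment over the 18375 genes tested and a threshold of 0.05. The common biological coefficient of variation was 0.433. SE was the absolute log2 fold change over the square root of F. CPM used TMM-scaled totals, and 0.5 was added before logarithms for the nearest patterns. DESeq2 1.42.0 was an alternative. The script was tested on simulated data. The genes, the pathway and marker lists and the tests were chosen with earlier results of these data known. Of the list genes, 2 are not reported here, and the list counts leave them out. Named genes were the 10, Ddit4, list genes past the threshold and genes whose exons overlap those of the 10. The 3 nearest to the member of largest change past the threshold were named too. Mapkap1, Prr5l, Rps6, Btrc, Eif4g1, Eif4a1, Eif4ebp3, Rragb, Rragd, Prkca and Akt1 were added after their values were seen. Sequences came from GENCODE M21 transcripts and the RefSeq promoter table (GRCm38.p6).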

Additional observations from a re-analysis of the deposited data

How the results depend on the processing

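Each of the 10 genes was refitted under 15 alternatives, and in 143 of these refits the log2 difference kept its direction and side of the threshold. No direction changed, and the 7 others concerned Mlst8, Eif4ebp1 and Eif4ebp2. The log2 difference of Eif4ebp1 ran from -1.35 to -0.94 and that of Eif4ebp2 from -1.30 to -0.90. The number of the 10 genes called lower was 2, 1 with the replicate number as a block, 0 at an adjusted p below 0.01 (0.0108 and 0.0199) and 1 to 3 with each library left out, being 1 without wild-type library 1. Pathway genes called lower numbered 4, but 8 with DESeq2, 9 with library totals alone, 2 with the block, 2 at an adjusted p below 0.01 and 2 to 7 with each library left out (7 and 2 when wild-type library 2 or 3 was left out). Over all genes, 3560 higher calls became 2341 with at least 10 counts in every library, 2177 with the block, 1964 at an adjusted p below 0.01 and 2683 to 3943 with libraries left out. The 1975 lower calls became 787 with the block, 712 at an adjusted p below 0.01 and 1089 to 2078 with libraries left out (1168 and 1089 when wild-type library 1 or 3 was left out, 1157 when knockout library 1 was). With fewer libraries or the block, fewer degrees of freedom remain; the cause of the other changes was not tested.

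Same-numbered libraries of the genotypes deviated from their group means with correlations of -0.238, -0.281 and -0.0413. These give no sign that the numbers pair the libraries, but with 3 libraries per genotype they cannot exclude it. With the block, edgeR adjusted p was 0.0520 for Eif4ebp1, 0.0509 for Eif4h, 0.124 for Lamtor1 and 0.134 for Mknk1. The direction of 3 ratios changed with libraries left out: Eif4ebp1 to Eif4ebp2 was 0.20 without knockout library 1 (range -0.26 to 0.20), the 4E-BP sum to Eif4e 0.26 without knockout library 2 (range -1.26 to 0.26), and Pdcd4 to Eif4a1 plus Eif4a2 was -0.056, -0.050 and -0.083 when wild-type library 1, wild-type library 3 or knockout library 1 was left out (range -0.083 to 0.18). Higher calls were 64.3% of all calls, and 59.4 to 73.5% under the alternatives.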

Other observations

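Of the genes that lie between Ddit4 and Eif4ebp2 on chromosome 10, 14 were tested. In AE9a-Ddit4-/- libraries 8 were higher and 0 lower by edgeR (1 lower at an unadjusted p below 0.05 and 1 by DESeq2), with a median log2 difference of 3.96, while 170 of the 868 genes tested on chromosome 10 were higher and 99 lower. The median was 0.00397 over the 6 of them expressed above a log2 CPM of 4, and over the 385 such genes of chromosome 10 it was -0.23, against -1.06 for Eif4ebp2. On chromosome 15, which holds Rictor, Prr5 and Deptor, 222 of 695 genes tested were higher and 22 lower. Over all genes tested 19.4% were called higher and 10.7% lower.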
